A study of Mus musculus with 12 samples.

Results

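The comparison set 3 libraries of whole brain tumours driven by the fusion YAP1-MAMLD1-dR3R1 against 3 libraries of naive brain, taken by their sample titles from 12 libraries in 4 groups. Of the 24421 gene symbols in the files, 16364 had enough counts to be tested, and all of them entered the comparison. The tumours arose in mouse brain after RCAS viruses carrying the fusion were injected intracranially, were snap frozen and were used whole. The naive group had no injection, and its source field names normal cortex. The labels do not explain the suffix dR3R1, and they give no strain, age, mouse identity or dose. They also do not name the promoter or cell type through which the host cells were made able to take up the virus, so the cell of origin is not known from them. RNA of these groups was counted per gene as reads, and values are given below as CPM, the count of a gene relative to the scaled total of its library.

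YAP1 is a co-activator of transcription that binds DNA through the TEAD factors. In the Hippo pathway, the kinases MST1/2 and LATS1/2 phosphorylate YAP1, which then stays in the cytoplasm and is degraded. TEAD targets include growth and matrix genes and several inhibitors of YAP1 itself, so the pathway limits its own output. MAMLD1 resembles the mastermind co-activators of Notch signalling, and fusions of YAP1 to MAMLD1 are known from ependymoma of the cerebral hemispheres in children. RCAS vectors derive from a bird retrovirus that enters only cells displaying its receptor, which mouse cells lack unless it is supplied. A tumour taken whole also holds its vessels, immune cells and remaining brain.

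Total counts were 19850220 to 24760814 over the 12 libraries, and a count of 3 was worth 0.116 to 0.145 CPM, a limit that covers counting error only. Over the genes tested, log2 CPM correlated at 0.971 to 0.985 between naive libraries and at 0.905 to 0.955 between tumours. Between the groups, the correlation was 0.747 to 0.763 for tumour 1, 0.698 to 0.707 for tumour 2 and 0.617 to 0.626 for tumour 3. Nothing in the labels shows that each library was made from a different mouse, so every p-value rests on the scatter among these libraries. Xist and Ddx3y of the Y chromosome were at 0.041 and 62.8 CPM in naive 1, 25.6 and 49.3 CPM in naive 2, and 305 and 0.044 CPM in naive 3. In tumours 1 to 3 they were at 492 and 0 CPM, 0 and 75.5 CPM, and 0.0443 and 85.8 CPM. The libraries of a group were therefore not all made from the same mouse, so their scatter is not wholly technical. Whether tumours 2 and 3 came from different mice is not shown. Of the 6 libraries compared, only naive 2 held both genes, and each of the others had no more than 0.0443 CPM of the lower of them. Outside the comparison, YAP1-FAM118B library 2 also held both, at 162 CPM of Xist and 29.9 CPM of Ddx3y.

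The naive tissue was checked against its markers. Genes of cortical neurons had mean log2 CPM of 6.57, 6.39 and 5.32 in naive 1 to 3, so the labelled tissue was present. Genes of other regions were present too, at unequal levels. The dopamine transporter gene Slc6a3 of the midbrain was at 73.3, 0.544 and 46.7 CPM, and the hypothalamic peptide gene Pmch at 12, 28.6 and 147 CPM. Naive 3 was therefore lowest for the cortical list and highest at the hypothalamic gene. Choroid plexus genes were high in 1 library of each group. Their summed level was 394, 397 and 2803 CPM in naive 1 to 3 and 3286, 304 and 255 CPM in tumours 1 to 3. Ttr, the transthyretin of choroid plexus, was at 2.34, 67.5 and 1589 CPM in naive and at 2155, 1.01 and 8.87 CPM in tumours. The part of choroid plexus tissue in the differences below was not tested beyond leaving out naive 3 and tumour 1 together, an alternative chosen after seeing the data. Of the 6 libraries compared, naive 3 and tumour 1 also had the most Xist and almost no Ddx3y. Under that alternative, choroid plexus and the sex of the mice therefore cannot be told apart.

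Of the 16364 genes, 10339 (63.2%) differed between the groups at an adjusted p below 0.05 in edgeR, and this is the meaning of "called", "rose" and "fell" below. The tumours were higher at 5627 genes (34.4%) and lower at 4712 (28.8%). A change of at least 2-fold was called in the higher direction at 4006 genes (24.5%) and in the lower direction at 3213 (19.6%). Libraries of the groups did not overlap at 11930 genes (72.9%), in either direction. The median log2 fold change over all genes was 0.06, with quartiles of -0.92 and 1.14. Large changes were mostly upward, with 1214 genes called at least 16-fold higher and 192 at least 16-fold lower. These shares are the background for every list below, and because they are large a list stands out from them only by a much higher share or a median far from 0.06. Leaving out naive 3 and tumour 1 together gave 9200 genes called, 5065 higher and 4135 lower.

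**Figure D1:**
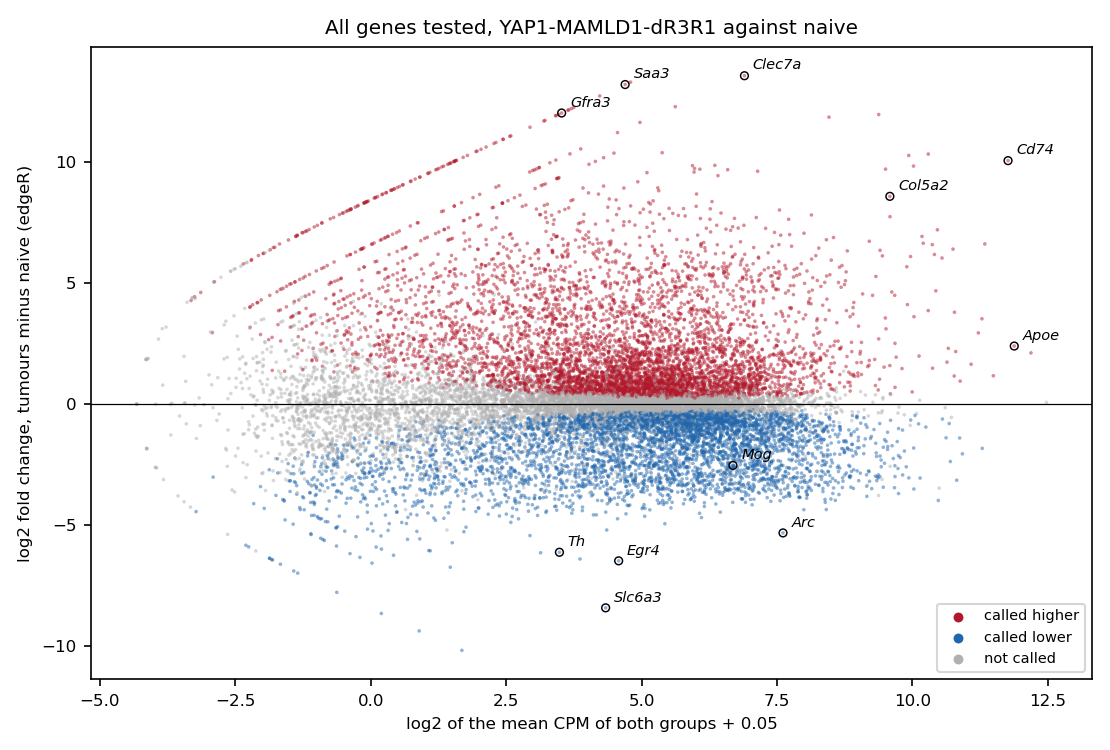
Each point is a gene tested, with the log2 of its mean CPM over both groups on the x axis and its edgeR log2 fold change, tumours minus naive, on the y axis; red and blue points were called higher and lower. The cloud reaches further upward than downward, with 1214 called genes at least 16-fold higher and 192 at least 16-fold lower, and circled genes are named in the text.

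The genes named here for the largest rises had almost no counts in naive brain, and several are immune genes. Clec7a, the receptor Dectin-1 of activated microglia, had a single count in naive and was at 174, 306 and 236 CPM in tumours, 16582 times the naive level (95% interval of the counts, 2976 to 655000). Cst7, an inhibitor of lysosomal proteases, also had 1 naive count and was at 79.8, 139 and 75.9 CPM in tumours (ratio 6842, interval 1228 to 270296). Both intervals pool the counts of a group and leave out the scatter among its libraries. Several genes had no naive count, and their folds are lower bounds against 3 counts over the group. The chemokine gene Ccl8 was at least 1383-fold higher, the acute-phase gene Saa3 at least 1339-fold, Foxd3, a factor of neural crest, at least 860-fold and Cd22, a receptor that binds sialic acid, at least 621-fold. Foxd3 was at 14, 33.6 and 64.4 CPM, so every tumour carried it. Gfra3, a receptor subunit for artemin, was at 1.16, 0.725 and 66.8 CPM, so its bound of 532-fold came almost wholly from tumour 3. The call of Gfra3 ended when only the 6 libraries compared were fitted (edgeR adjusted p = 0.0548).

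The genes with the largest falls included some induced by neuronal activity and some known from single brain regions. The activity-dependent factor Egr4 fell from 49.6, 69.9 and 21.7 CPM to 0.582, 0.725 and 0.266 CPM, a log2 fold change of -6.48 ± 1.49 (SE). Npas4, another activity-dependent factor, fell from 32.9, 37.3 and 15.8 CPM to between 0.266 and 0.387 CPM (-6.40 ± 1.11). Arc, a synaptic gene induced by activity, was at 507, 470 and 167 CPM in naive and at 11.1, 15.4 and 2.08 CPM in tumours (-5.32 ± 1.09, edgeR adjusted p = 0.00197). Genes of largest change were chosen among those whose libraries did not overlap, so the separation at these 3 genes is part of the choice. Naive levels of midbrain and thalamic genes were uneven. Slc6a3, given above by library, fell most of the genes named here (-8.42 ± 1.95) and had at most 0.311 CPM in a tumour. Th, the enzyme of dopamine synthesis, had 34.0, 4.02 and 27.8 CPM in naive and at most 0.580 CPM in tumours, and its adjusted p in edgeR was 0.0114, or 0.0646 without naive 3 and tumour 1. Shox2, a thalamic factor, rested on naive 3 alone, at 0.657, 1.01 and 50.0 CPM; without it the log2 fold change was -1.79 (edgeR adjusted p = 0.357), and the call also ended without tumour 2 (0.0825) or tumour 3 (0.0802).

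The fusion partners were read first. Yap1 was at 24.3, 23.6 and 22.3 CPM in naive 1 to 3 and at 121, 63.4 and 82.0 CPM in tumours 1 to 3, so every tumour lay above every naive library. Its log2 fold change was 1.93 ± 0.27. Mamld1 was at 26.2, 27.3 and 23.8 CPM in naive and at 46.4, 13.8 and 24.4 CPM in tumours, with tumours on both sides of naive (0.13 ± 0.49, edgeR adjusted p = 0.829). Whether reads of the viral transcript were counted on either mouse gene was not tested, and the species of the sequences in the construct is not given in the sources used here.

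A further list held Yap1 itself, its paralogue, the TEAD factors and the vestigial-like cofactors. Of its 9 tested members 8 were called higher and none lower, with a median log2 fold change of 2.90. Yap1, given above, is among the 8, and a part of viral reads in its count was not tested. Wwtr1, the paralogue TAZ, rose from 14.4, 17.5 and 19.1 CPM to 104, 118 and 158 CPM (2.90 ± 0.26). Tead1, Tead2 and Tead3 rose by 2.31 ± 0.31, 3.06 ± 0.52 and 3.62 ± 0.55. Tead4 was low, and its rise of 2.07 ± 0.74 had an edgeR adjusted p of 0.0330, or 0.253 without tumour 1, 0.109 without naive 1 and 0.0765 without naive 3. Vgll3, a cofactor that binds TEADs, rose from 5.95, 5.36 and 3.87 CPM to 130, 129 and 219 CPM (4.97 ± 0.38). Vgll4, a cofactor that competes with YAP1 for TEADs, was within 40.6 to 45.0 CPM in the 3 tumours against 11.0 to 13.4 CPM in naive (1.80 ± 0.19). The tumours lay closer together at Vgll4 than at Wwtr1 or Vgll3.

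Of 25 YAP/TEAD target genes, 19 were called higher and 1 lower, with a median of 2.56. Ankrd1, a nuclear ankyrin-repeat protein induced by stretch, rose from 0.657, 0.126 and 0.132 CPM to 258, 64.0 and 64.9 CPM (8.69 ± 0.87, edgeR adjusted p = 2.98e-05). Cyr61, a secreted matricellular protein, was at 12.3, 20.4 and 8.05 CPM in naive and at 366, 131 and 276 CPM in tumours (4.24 ± 0.54). Ctgf, a relative of Cyr61, was at 1371, 340 and 247 CPM in tumours 1 to 3 and at 20.9 to 40.5 CPM in naive (4.34 ± 0.97). Tumour 1 was highest at all 3 of these genes, which are the classical immediate targets. Amotl2, an angiomotin that holds YAP1 at cell junctions, varied less, at 464, 311 and 443 CPM against 19.9, 24.4 and 34.7 CPM (3.94 ± 0.30). The kinase gene Nuak2 rose by 5.06 ± 0.52, the membrane-repair gene Myof by 4.64 ± 0.50 and the receptor kinase gene Axl by 3.99 ± 0.30, each with every tumour above every naive library. The exception was Fjx1, a kinase of the Golgi in the Fat/Dachsous branch, which fell from 79.3, 84.5 and 52.3 CPM to 30.9, 24.5 and 33.7 CPM (-1.28 ± 0.38, edgeR adjusted p = 0.0138, and 0.0533 without tumour 2).

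Promoters of 3 of these targets are shown because the letters GGAATG, the core that TEAD factors bind, occur in them. Each run is the 250 bases before the RefSeq start site on GRCm38.p6, written 5′ to 3′ on the strand of the gene, with GGAATG or its reverse complement in capitals. Ankrd1 lies on the minus strand at chr19:36119845-36120094, Cyr61 (Ccn1 in RefSeq) on the minus strand at chr3:145649986-145650235 and Amotl2 on the plus strand at chr9:102717554-102717803.
Ankrd1: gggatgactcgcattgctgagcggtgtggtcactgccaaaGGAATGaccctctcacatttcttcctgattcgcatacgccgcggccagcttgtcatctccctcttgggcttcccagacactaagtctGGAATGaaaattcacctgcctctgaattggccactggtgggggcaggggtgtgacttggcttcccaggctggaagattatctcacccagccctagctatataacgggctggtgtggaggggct
Ccn1: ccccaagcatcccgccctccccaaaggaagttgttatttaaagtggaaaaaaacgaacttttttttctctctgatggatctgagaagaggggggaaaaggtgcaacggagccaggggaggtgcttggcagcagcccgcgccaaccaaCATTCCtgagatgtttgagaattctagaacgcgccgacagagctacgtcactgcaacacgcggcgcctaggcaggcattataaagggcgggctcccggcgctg
Amotl2: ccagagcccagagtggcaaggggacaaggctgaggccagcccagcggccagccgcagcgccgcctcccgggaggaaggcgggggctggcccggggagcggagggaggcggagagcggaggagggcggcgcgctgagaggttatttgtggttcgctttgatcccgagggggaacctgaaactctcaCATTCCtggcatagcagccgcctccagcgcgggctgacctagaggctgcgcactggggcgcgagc
In Ankrd1 the matches begin 210 and 123 bases before the start, in Ccn1 103 bases and in Amotl2 65 bases before it. Searched on both strands, the 6 letters were in 7 of 19 promoter windows of the YAP/TEAD targets (36.8%), where 17 of the 25 genes had an entry. They were in 12.6% of all 32851 windows of the table, in 11.1% of those of the genes tested and in 12.8% of those of genes called at least 2-fold higher. A match is a description of letters and shows no binding, and many known TEAD sites lie in distant enhancers outside these windows.

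Inhibitors of the pathway were raised less evenly. Of 22 Hippo kinases and regulators, 13 were called higher and 2 lower, with a median of 0.60. Lats2, a kinase that phosphorylates YAP1 and is itself a target, rose from 28.4, 36.1 and 55.5 CPM to 268, 169 and 273 CPM (2.56 ± 0.29). Mob1a, the activating subunit of LATS kinases, rose from 13.1, 10.8 and 12 CPM to 80.2, 122 and 129 CPM (3.21 ± 0.29), and Sav1, a scaffold of the upstream kinases, by 1.58 ± 0.25. Neither gene's groups overlapped. The membrane scaffold Wwc1 (KIBRA) fell from 122, 86.9 and 94.4 CPM to 79.9, 56.5 and 46.3 CPM (-0.73 ± 0.22, edgeR adjusted p = 0.0165, and 0.0561 without naive 1). The nuclear factor I genes, cofactors reported to act with YAP1-MAMLD1, did not pass the test: Nfia was at 0.51 ± 0.25, Nfib at -0.38 ± 0.17, Nfic at 0.39 ± 0.18 and Nfix at -0.03 ± 0.24. Nfib was called lower without tumour 1 (-0.59, edgeR adjusted p = 0.00889) and with RLE factors (0.0303) or in DESeq2 (0.0149), and Nfic was called higher by library size only (edgeR adjusted p = 0.0480).

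In the Notch pathway, in which a cleaved receptor joins the DNA-binding protein RBPJ and a mastermind co-activator, 11 of 21 members were called higher and 5 lower, with a median of 1.39. The receptor Notch1 rose from 30.3, 28.3 and 28.2 CPM to 80.6, 103 and 147 CPM (1.93 ± 0.21), the ligand Jag1 from 4.72, 7.50 and 7.30 CPM to 57.6, 27.7 and 39.4 CPM (2.68 ± 0.41), and Rbpj by 2.17 ± 0.22. The mastermind gene Maml1 rose by 1.45 ± 0.18. Targets were split, since the repressor Hes1 rose from 7.67, 6.57 and 3.91 CPM to 19.3, 15.9 and 21.9 CPM (1.65 ± 0.27) and Hes5 fell from 11.8, 9.63 and 7.56 CPM to 0.466, 1.84 and 1.06 CPM (-3.11 ± 0.85). The ligand Jag2 fell by 1.64 ± 0.40 on the log2 scale. At each of these genes the libraries of the groups did not overlap.

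Nearly all genes of DNA replication and mitosis rose. Of 30 DNA replication genes 28 were called higher and none lower (median 2.64), and of 26 mitosis genes 25 were called higher and none lower (median 4.65). Cdk1, the kinase that starts mitosis, was at 0.246, 0.293 and 0.748 CPM in naive and at 27.3, 35.5 and 46.7 CPM in tumours (6.40 ± 0.40, edgeR adjusted p = 3.92e-06). Mki67, the proliferation marker Ki-67, was at 3.20, 2.93 and 1.98 CPM and at 87.3, 123 and 166 CPM (5.53 ± 0.35), and the thymidine kinase gene Tk1 rose by 6.29 ± 0.37. Tumour 1 was lowest and tumour 3 highest at Cdk1 and Mki67, and every tumour was far above naive.

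Of 26 genes of the G1 phase, which sets entry into the cycle, 17 were called higher and 4 lower (median 2.16). Ccnd1, the cyclin that pairs with CDK4 and CDK6, rose from 69.8, 67.3 and 65.4 CPM to 569, 1003 and 1095 CPM (3.72 ± 0.26), and its partner Cdk6 by 4.79 ± 0.53. Myc rose from 3.28, 4.06 and 3.25 CPM to 44.1, 54.0 and 52.3 CPM (3.82 ± 0.26). Its relative Mycn fell from 6.81, 8.04 and 6.82 CPM to 1.55, 4.06 and 3.24 CPM (-1.29 ± 0.35). Several inhibitors of the cycle rose too. Cdkn2a was at 0.0821, 0.168 and 0.088 CPM in naive and at 3.53, 4.40 and 5.36 CPM in tumours (5.23 ± 0.42), and its neighbour Cdkn2b at 1.23, 1.42 and 1.14 CPM and at 39.9, 35.3 and 42.3 CPM (4.94 ± 0.28). The p53 gene Trp53 rose by 2.36 ± 0.18 and its target Cdkn1a, the inhibitor p21, by 2.28 ± 0.34. At Cdkn2b the tumours differed little from each other, and every tumour lay above every naive library at these 4 genes.

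The promoter of Cdk1 is shown because it holds the letters TTTGAA, the core of the element through which the cell cycle complexes DREAM and MuvB act on late genes. The 250 bases lie on the minus strand at chr10:69352913-69353162, with matches in capitals that begin 71 and 15 bases before the start.
Cdk1: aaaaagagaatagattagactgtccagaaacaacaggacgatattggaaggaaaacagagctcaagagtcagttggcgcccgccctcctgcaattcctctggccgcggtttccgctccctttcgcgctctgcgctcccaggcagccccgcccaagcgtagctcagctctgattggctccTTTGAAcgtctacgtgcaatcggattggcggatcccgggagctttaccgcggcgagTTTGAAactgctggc
On both strands, TTTGAA was in 9 of 23 windows of the mitosis list (39.1%) and 4 of 29 of the DNA replication list (13.8%), against 16% of all windows, 11.1% of those of genes tested and 13.6% of those of genes called at least 2-fold higher. CCAAT, the box bound by NF-Y, was in 19 of 23 windows of the mitosis list (82.6%) and 17 of 29 of the replication list (58.6%), against 33.8% of all windows and 34.6% of those of genes tested. The motifs were counted separately and can overlap by an end base, and windows of a gene with several starts can share bases.

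Most neuronal genes fell. None of 20 neuron genes was called higher and 17 were called lower (median -3.13), none of 25 glutamate and GABA receptor genes was higher and 22 were lower (-3.26), and of 23 neuronal ion channel genes 21 were lower and 1 higher (-3.11). Map2, the microtubule protein of dendrites, was at 853, 788 and 716 CPM in naive and at 212, 192 and 200 CPM in tumours (-1.96 ± 0.34). Grin1, the shared subunit of NMDA receptors, was at 489, 449 and 369 CPM and at 67.8, 42.8 and 3.81 CPM (-3.51 ± 0.94), and the sodium channel gene Scn1a at 280, 198 and 270 CPM and at 24.1, 15.5 and 2.22 CPM (-4.16 ± 0.97). The remaining neuronal signal was lowest in tumour 3: over the 20 genes, mean log2 CPM was 6.69, 6.22 and 4.26 in tumours 1 to 3 against 9.24, 9.07 and 9.03 in naive. In whole tissue, fewer cells of a type and less RNA per cell cannot be told apart. The number of neuron genes called fell to 9 without tumour 2 and to 9 without tumour 3, and that of receptor genes to 14 without tumour 2, while the medians of both lists stayed at -2.72 or lower under every alternative. The channel that went the other way was Kcnn4, a calcium-gated potassium channel of immune and dividing cells, at 0.246, 0 and 0.176 CPM in naive and at 27.8, 51.7 and 44.5 CPM in tumours (8.14 ± 0.80).

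Most tested genes of cortical, interneuron and hypothalamic lists fell. Lower calls were made for 6 of 8 cortical genes (median -3.74), 12 of 15 interneuron genes (-3.23) and 6 of 8 hypothalamic genes (-3.81), and no member of these lists was higher. Pvalb, the calcium buffer of fast-spiking interneurons, was at 53.9, 44.6 and 54.6 CPM in naive and at 8.50, 7.68 and 1.68 CPM in tumours (-3.10 ± 0.54). Slc17a7, the glutamate transporter of cortical neurons, was at 1627, 1374 and 707 CPM and at 180, 88.1 and 2.08 CPM, with no overlap but too much spread to pass (-3.78 ± 1.93, edgeR adjusted p = 0.111). It passed when only the 6 libraries were fitted (0.0474) and in DESeq2 (adjusted p = 0.0200). The cortical count was 3 without naive 1, without naive 2 or without tumour 2. The hypothalamic count was 2, with a median of -2.35, without naive 3 and tumour 1. None of 4 striatal genes passed (median -1.86).

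Myelin genes fell or did not pass, and precursor genes were divided. Of 16 myelin genes 9 were called lower and none higher (median -1.60). Mog, a protein of the outer sheath, was at 161, 128 and 238 CPM in naive and at 51.2, 28.2 and 11.5 CPM in tumours (-2.53 ± 0.64). Of 14 genes of oligodendrocyte precursors 6 were higher and 3 lower (median 0.87, or 0.33 without tumour 3). Sox10, the lineage factor, rose from 42.4, 40.1 and 56.9 CPM to 69.0, 225 and 278 CPM (2.04 ± 0.47), and the matrix gene Matn4 from 10.8, 10.3 and 10.4 CPM to 90.6, 248 and 343 CPM (4.43 ± 0.64). Gpr17, a receptor of committed precursors, fell from 111, 90.3 and 111 CPM to 11.1, 23.9 and 39.6 CPM (-2.06 ± 0.47). Tumour 1 was lowest of the tumours at Sox10, Matn4 and Gpr17, whichever way the gene moved.

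Glial and stem cell genes did not move as a block. Of 22 neural stem and progenitor genes 10 were higher and 1 lower (median 0.84), of 19 astrocyte genes 3 were higher and 6 lower (-0.33), and of 21 genes of motile cilia and ependyma 3 were higher and 2 lower (-0.57). The last median was -0.0023 without naive 3, -0.0522 without tumour 3, -0.28 without tumour 2 and -1.31 without tumour 1, and the astrocyte median was -0.51 without tumour 1. The intermediate filament genes Vim, Nes and Gfap rose. Vim was at 30.7, 38.9 and 39.7 CPM in naive and at 2378, 1501 and 1726 CPM in tumours (5.68 ± 0.30), Nes at 11.4, 10.5 and 15.2 CPM and at 168, 206 and 228 CPM (4.02 ± 0.18), and Gfap at 175, 250 and 280 CPM and at 4247, 2577 and 2986 CPM (3.80 ± 0.96). Cd44, a receptor for hyaluronan, rose by 5.26 ± 0.33. Among the astrocyte genes, 10 of 19 were not called. The glycolytic gene Aldoc fell and was at 765, 781 and 724 CPM in naive and at 345, 215 and 239 CPM in tumours (-1.51 ± 0.39). The water channel gene Aqp4 was at 153, 184 and 248 CPM and at 557, 399 and 215 CPM, with overlapping groups, and did not pass (1.00 ± 0.54, edgeR adjusted p = 0.130). Slc1a2, the main glutamate transporter of astrocytes, was down at -2.37 ± 0.71 (edgeR adjusted p = 0.0149, and 0.0584 without tumour 2 or 0.0625 without tumour 3). Foxj1, the master factor of motile cilia, was at 5.50, 6.78 and 18.7 CPM and at 32.6, 24.0 and 49.5 CPM (1.78 ± 0.52, edgeR adjusted p = 0.0133), and its call ended without naive 1, naive 2 or tumour 3 (0.0532, 0.0519 and 0.0517). The number of astrocyte genes called lower was 3 without naive 3, 2 without tumour 2 and 2 without tumour 3. The stem cell factor Sox2 did not pass (0.71 ± 0.32, edgeR adjusted p = 0.0719), although it did without tumour 1 (0.0430) and when only the 6 libraries were fitted (0.0179).

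**Figure D2:**
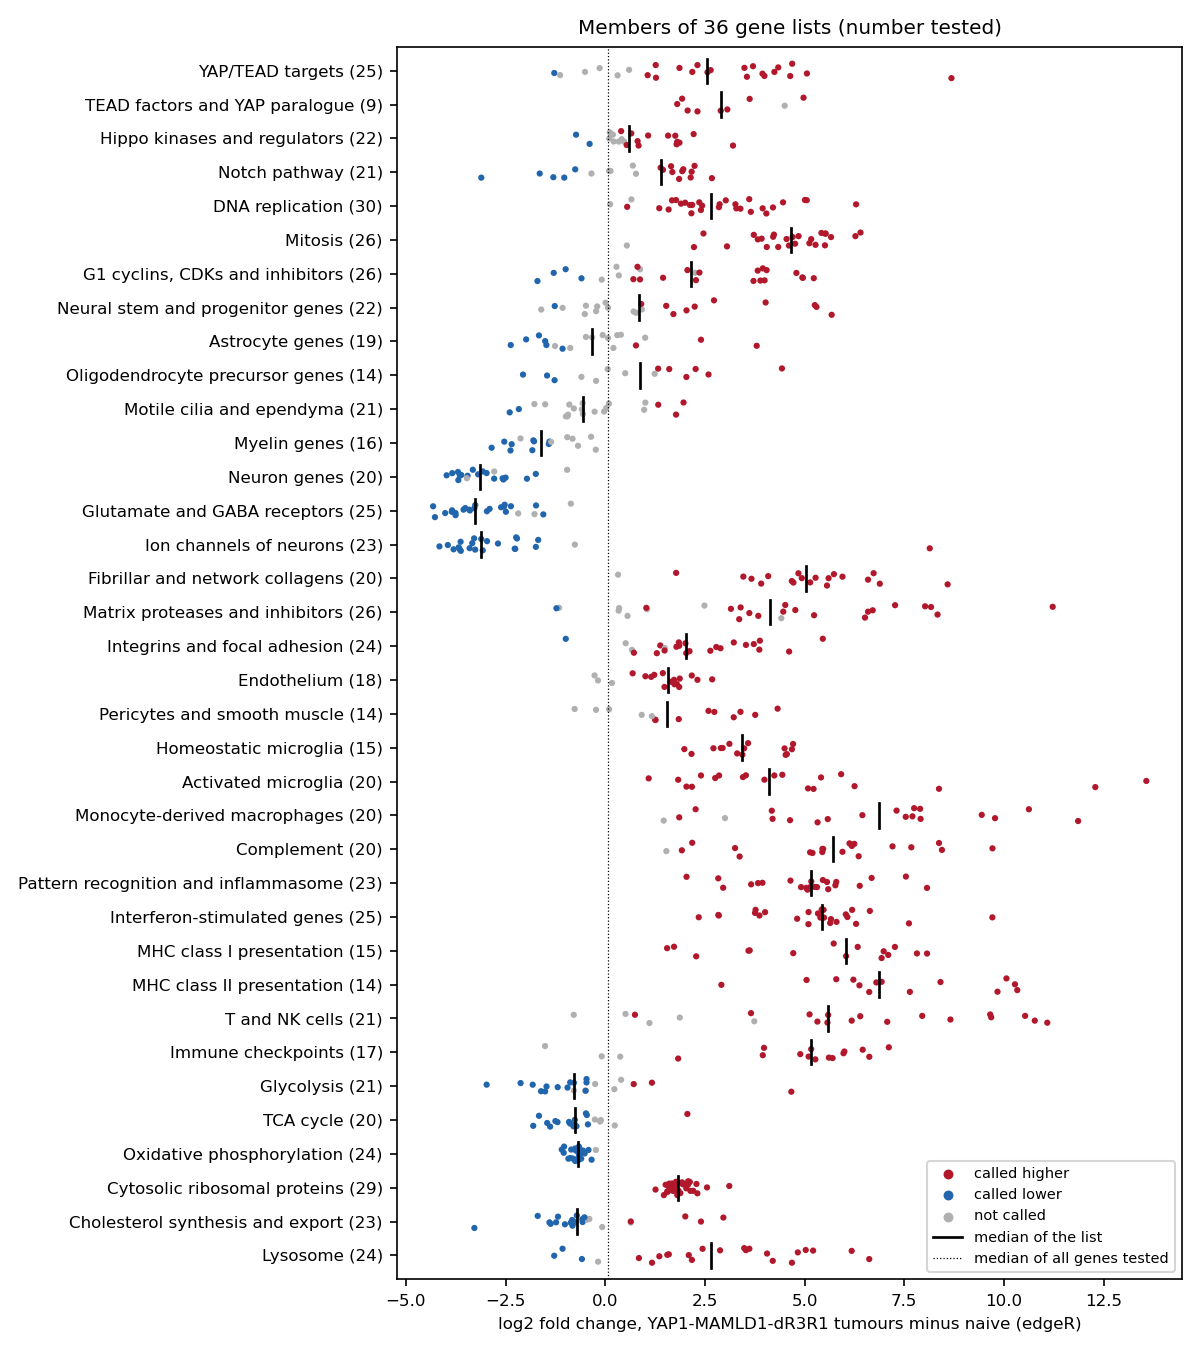
Each point is a tested member of 1 of 36 gene lists, placed on the x axis at its edgeR log2 fold change, tumours minus naive, and coloured by its call; black bars are list medians and the dotted line is the median of all genes tested, 0.06. Neuronal lists lie to the left (medians near -3), immune and matrix lists to the right, the myelin list to the left (median -1.60), and astrocyte, precursor and stem cell lists on both sides of the line.

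Nearly all collagens tested and most other matrix genes rose. Of 20 fibrillar and network collagens 19 were called higher and none lower (median 5.04), of 27 matrix glycoproteins and proteoglycans 18 and none (3.43), and of 26 matrix proteases and inhibitors 18 and 1 (4.13). Col1a1, the main fibrillar collagen, was at 5.29, 12.9 and 14.7 CPM in naive and at 1656, 645 and 1202 CPM in tumours (6.73 ± 0.98). Col8a1, a network collagen of vessel walls, rose from 3.53, 4.77 and 10.4 CPM to 716, 606 and 895 CPM (6.89 ± 0.72), and Col4a1 of basement membranes from 30.7, 32.0 and 34.0 CPM to 959, 632 and 2158 CPM (5.28 ± 0.46). Tumour 2 was lowest at each of these 3 collagens. The gelatinase gene Mmp2 was at 4.27, 3.73 and 3.39 CPM and at 259, 467 and 375 CPM (6.59 ± 0.58). Fibronectin (Fn1) rose by 4.64 ± 0.76 and tenascin C (Tnc) by 5.30 ± 1.19. Lox, an enzyme that crosslinks collagen, was at 991, 71.1 and 54.1 CPM in tumours and at 1.23 to 1.63 CPM in naive, so tumour 1 held most of it.

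Most adhesion genes rose, and mesenchymal factors rose or did not pass. Of 24 integrin and focal adhesion genes 20 were higher and 1 lower (median 2.02). Itgb5, an integrin subunit that binds vitronectin, was at 41.8, 45.9 and 46.9 CPM in naive and at 565, 651 and 765 CPM in tumours (3.88 ± 0.19), and Itga5, the fibronectin receptor subunit, rose by 4.61 ± 0.45. The focal adhesion kinase gene Ptk2 was the fall in the list, from 153, 133 and 95.7 CPM to 68.4, 54.7 and 69.1 CPM (-0.99 ± 0.19). Of 21 mesenchymal and RUNX factors 11 were higher, none was lower and 10 were not called (median 1.58). Runx1, a factor of blood and mesenchymal cells, rose from 0.657, 0.419 and 0.132 CPM to 79.2, 72.0 and 68.7 CPM (7.48 ± 0.63), with tumours that hardly differed from each other. Snai2, a repressor of epithelial junction genes, rose by 4.32 ± 0.94. Only 7 of 23 HOX genes were expressed enough to be tested, and 4 of them were called higher; the call count was 1 when only the 6 libraries were fitted and 1 without naive 3 and tumour 1.

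Among growth signals, 8 of 12 genes of the EGF receptor family and its ligands were called higher and 2 lower (median 1.79). Erbb2 rose from 1.52, 3.10 and 2.37 CPM to 20.3, 25.7 and 30.6 CPM (3.45 ± 0.45), the ligand Hbegf from 11.5, 12.1 and 14.9 CPM to 56.8, 56.5 and 60.7 CPM (2.18 ± 0.38), and the neuronal receptor Erbb4 fell from 47.4, 40.0 and 43.1 CPM to 6.21, 6.33 and 8.65 CPM (-2.62 ± 0.36). Egfr was at 94.9, 24.4 and 11.8 CPM in tumours against 12.4 to 14.7 CPM in naive, and its rise of 1.71 ± 0.63 rested on tumour 1 (edgeR adjusted p = 0.0352, and 0.325 without it). Its call also ended without any 1 of the naive libraries (edgeR adjusted p = 0.103, 0.0880 and 0.0727). The count of higher genes in this list was 5 without naive 1, without naive 2 or without tumour 1.

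Of 28 FGF, PDGF, HGF and VEGF signals 15 were higher and 5 lower (median 1.28). Csf1, the growth factor of microglia and macrophages, rose from 25.3, 22.9 and 33.5 CPM to 721, 421 and 404 CPM (4.24 ± 0.43). Pdgfb, a ligand for pericytes and glial precursors, rose from 22, 24.8 and 16.1 CPM to 79.2, 186 and 260 CPM (3.06 ± 0.51). Vegfa, the main inducer of vessels, did not pass (0.67 ± 0.31, edgeR adjusted p = 0.0865), although it did without tumour 2 (0.89, edgeR adjusted p = 0.0309).

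Of 27 TGF-beta and BMP signals 18 were higher and 1 lower (median 1.5). Tgfb1 rose from 4.10, 3.02 and 2.81 CPM to 80.0, 103 and 102 CPM (4.84 ± 0.48), its receptor Tgfbr2 by 4.64 ± 0.32, and Fst, which traps activins, from 4.23, 4.02 and 2.07 CPM to 159, 93.2 and 277 CPM (5.68 ± 0.62). The 31 WNT signals were mixed, with 12 higher, 3 lower and a median of 0.29 (0.45 without naive 3 and 0.44 without tumour 1). Sfrp1, a secreted WNT antagonist, was at 18.4, 15.9 and 11.8 CPM and at 852, 585 and 1010 CPM (5.73 ± 0.43). Axin2, a direct readout of beta-catenin, was at 31.6, 27.2 and 29.2 CPM in naive and at 19.3, 31.2 and 29.2 CPM in tumours, with overlapping groups (-0.14 ± 0.22, edgeR adjusted p = 0.593).

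Of 20 AP-1 and immediate early genes 9 were lower and 4 higher (median -0.89). The lower genes included the neuronal activity genes Arc, Egr4 and Npas4 given above. Atf3, a factor of cell stress, rose from 1.11, 2.09 and 2.16 CPM to 29.5, 43.2 and 43.8 CPM (4.44 ± 0.61), and Jun from 65.3, 89.9 and 88.9 CPM to 123, 157 and 182 CPM (0.92 ± 0.23). Fos, its partner, was at 75, 94.9 and 59.2 CPM and at 35.3, 47.9 and 61.0 CPM and did not pass (-0.67 ± 0.32, edgeR adjusted p = 0.0884).

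Most genes of vessel walls rose, with list medians under those of the matrix lists. Of 18 endothelial genes 15 were higher and none lower (median 1.57), and of 14 genes of pericytes and smooth muscle 9 were higher and none lower (1.55, or 0.89 without tumour 3). The adhesion molecule Pecam1 was at 14.3, 12.4 and 16.8 CPM in naive and at 46.7, 36.4 and 60.6 CPM in tumours (1.73 ± 0.28), and the tight junction gene Cldn5 at 18.9, 19.6 and 15.3 CPM and at 53.8, 77.7 and 111 CPM (2.17 ± 0.53). Pdgfrb, the receptor of pericytes, rose from 23.1, 27.8 and 22.8 CPM to 215, 191 and 283 CPM (3.22 ± 0.42). Acta2, the smooth muscle actin, was uneven, at 295, 22.7 and 548 CPM against 11.0 to 17.6 CPM in naive (4.32 ± 0.88). Transporters of the blood-brain barrier, by contrast, were split, with 3 of 12 higher, 3 lower and a median of -0.06. Mfsd2a, the lipid transporter of that barrier, was at 27.7, 25.1 and 21.0 CPM in naive and at 32.1, 18.7 and 22.4 CPM in tumours (-0.01 ± 0.35, edgeR adjusted p = 0.981). The difference between the lists was not tested.

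All 15 homeostatic microglia genes and all 20 activated microglia genes were called higher, with medians of 3.44 and 4.12. Tmem119, a membrane protein used as a microglia marker, rose from 18.2, 19.7 and 17.8 CPM to 271, 510 and 503 CPM (4.53 ± 0.51), and the fractalkine receptor gene Cx3cr1 from 46.5, 48.9 and 37.0 CPM to 700, 1163 and 1252 CPM (4.56 ± 0.55). Tumour 1 was the lowest tumour at both. Cx3cl1, which encodes the neuronal ligand of that receptor, went the other way, from 895, 811 and 535 CPM to 115, 101 and 55.2 CPM (-3.04 ± 0.32). Among activation genes, the lipid sensor Trem2 rose from 8.95, 9.17 and 6.25 CPM to 198, 334 and 297 CPM (5.09 ± 0.44). Spp1, osteopontin, was at 1572, 34.5 and 64.0 CPM in tumours, and without tumour 1 its rise was 1.73 (edgeR adjusted p = 0.136, against 0.0144 with it). The call of Spp1 also ended without naive 1 (0.0558) or naive 2 (0.0506).

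Of 20 genes of monocyte-derived macrophages 18 were higher and none lower (median 6.88). Arg1, arginase 1 of alternatively activated macrophages, was at 0.164, 0.168 and 0.220 CPM in naive and at 362, 455 and 1292 CPM in tumours (11.86 ± 1.40). Ccr2, the receptor that brings monocytes into tissue, was at 0.451, 0.126 and 0.220 CPM and at 34.4, 60.4 and 57.1 CPM (7.54 ± 1.32). Tumour 1 held most of Mrc1, a scavenger receptor of border macrophages, with 253, 27.8 and 20.9 CPM in tumours; without tumour 1 its log2 fold change was 2.13 (edgeR adjusted p = 0.104, against 0.0178 with it). The call of Mrc1 also ended without naive 1 (0.0625) or naive 3 (0.0593). Over the 20 genes tumour 1 was highest, with a mean log2 CPM of 6.70 against 5.36 and 5.39. Chemokine genes rose in 19 of 25 cases and fell in 1, Cx3cl1 (median 6.32), their receptors rose in 13 of 14 (5.97, or 5.63 with the gene without a naive count at its bound) and cytokines and their receptors in 21 of 24 (4.85). Cxcl13, which attracts B cells, was at 0.410, 0 and 0.572 CPM in naive and at 669, 1754 and 1565 CPM in tumours (11.97 ± 1.16), and Cxcl10, induced by interferon, rose from 0.164, 0.251 and 0.088 CPM to 29.0, 259 and 201 CPM (9.87 ± 1.15).

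Nearly all genes of innate sensing and complement rose. All 23 genes of pattern recognition and the inflammasome were higher (median 5.17), as were 19 of 20 complement genes (5.71). The libraries of the groups did not overlap at 22 of the 23 and 19 of the 20 genes, beside 72.9% of all genes tested. Tlr2, a sensor of lipoproteins, was at 1.07, 1.17 and 1.85 CPM in naive and at 108, 185 and 128 CPM in tumours (6.68 ± 0.36). C1qa, which opens the classical pathway, was at 33.7, 42.7 and 33.8 CPM and at 1903, 3308 and 2815 CPM (6.19 ± 0.47), C3, its central component, at 1.07, 1.55 and 2.55 CPM and at 581, 2694 and 1072 CPM (9.71 ± 1.23), and C4b at 15.9, 20.2 and 20.7 CPM and at 1697, 3075 and 3622 CPM (7.21 ± 0.78). Tumour 1 was lowest at these 4 genes and still far above the highest naive library.

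Antigen presentation and the interferon response rose without exception among tested members: all 15 MHC class I genes (median 6.04), all 14 MHC class II genes (6.87) and all 25 interferon-stimulated genes (5.43). H2-K1, a classical class I heavy chain, was at 16.8, 20.4 and 19.1 CPM in naive and at 918, 3180 and 2787 CPM in tumours (6.93 ± 0.62). Reads of its near-identical relatives may be divided among them, so the single gene is uncertain. B2m, the light chain that class I molecules share, was at 42.2, 45.0 and 47.0 CPM and at 1408, 3710 and 3716 CPM (6.04 ± 0.45). Cd74, the invariant chain of class II, was at 4.60, 8.0 and 6.86 CPM and at 2503, 11691 and 6660 CPM (10.06 ± 1.64), which made it the most abundant gene of tumour 2 with 1.22% of counts. Zbp1, a sensor of left-handed nucleic acids, rose from 0.0821, 0.251 and 0.132 CPM to 42.9, 173 and 187 CPM (9.71 ± 1.42). Tumour 1 was the lowest tumour at all 4 genes, and over the 25 interferon-stimulated genes the mean log2 CPM was 5.59, 7.10 and 6.75 in tumours 1 to 3.

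Promoters of Isg15 and Ifit1 are shown because they hold a pair of GAAA separated by 2 bases, the core of the interferon-stimulated response element. Isg15, a ubiquitin-like modifier, rose from 1.03, 1.84 and 2.07 CPM to 27.8, 100 and 85.3 CPM (5.43 ± 0.71), and Ifit1, which binds foreign RNA, from 2.38, 5.53 and 4.62 CPM to 38.2, 94.2 and 69.7 CPM (4.01 ± 0.65). The windows are the 250 bases before the RefSeq start on GRCm38.p6, at chr4:156200819-156201068 on the minus strand for Isg15 and chr19:34640639-34640888 on the plus strand for Ifit1, with matches on either strand in capitals.
Isg15: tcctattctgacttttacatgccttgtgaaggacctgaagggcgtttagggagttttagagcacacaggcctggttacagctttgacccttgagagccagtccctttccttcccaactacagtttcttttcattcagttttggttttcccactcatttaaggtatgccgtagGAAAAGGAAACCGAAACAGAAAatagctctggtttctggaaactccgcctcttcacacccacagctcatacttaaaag
Ifit1: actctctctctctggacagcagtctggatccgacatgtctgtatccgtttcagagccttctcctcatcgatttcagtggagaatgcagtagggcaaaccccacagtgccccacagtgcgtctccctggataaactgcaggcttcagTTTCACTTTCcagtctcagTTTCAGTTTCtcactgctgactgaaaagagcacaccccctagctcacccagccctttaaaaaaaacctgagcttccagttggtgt
Isg15 holds 3 overlapping matches that begin 78, 72 and 66 bases before the start, and Ifit1 holds 2, at 104 and 85 bases. The spaced pair was in 9 of 23 windows of the interferon-stimulated genes (39.1%, with entries for 18 of the 25 genes), in 3 of 17 windows of chemokines (17.6%) and in 2 of 14 of MHC class I genes (14.3%). It was in 2.98% of all windows, in 2.67% of those of genes tested, in 4.79% of those of genes called at least 2-fold higher and in 2.2% of those called at least 2-fold lower.

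Most lymphocyte genes tested rose, at lower levels than the myeloid ones. Of 21 genes of T and NK cells 16 were higher and none lower (median 5.59), of 17 checkpoint genes 14 and none (5.17), and of 7 B cell genes 6 and none (5.18). The count of T and NK cell genes was 11 without naive 2 and 12 without naive 1 or without tumour 3. Cd4 was among the 5 genes of that list that were not called. Cd8a was at 0.246, 0 and 0 CPM in naive and at 2.17, 32.3 and 31.8 CPM in tumours (7.95 ± 2.13, edgeR adjusted p = 0.00849). Cd3e, a chain of the T cell receptor complex, was at 0, 0 and 0.264 CPM and at 1.59, 12.6 and 8.91 CPM (6.40 ± 1.95, edgeR adjusted p = 0.0158), and its call ended without naive 1 or naive 2 (0.0556 and 0.0553). Tumour 1 was the poorest in T and NK cell genes, with a summed level of 49.5 CPM against 274 and 202 CPM in tumours 2 and 3 and 17.8 to 21.3 CPM in naive. The checkpoint ligand Cd274 rose from 3.20, 2.26 and 3.34 CPM to 37.0, 157 and 109 CPM (5.10 ± 0.89), and Lag3, a receptor found on T cells and other immune cells, from 4.60, 6.32 and 3.21 CPM to 80.8, 272 and 194 CPM (5.27 ± 0.56). Jchain, the joining chain of secreted antibodies, was at 11.0, 106 and 78.7 CPM in tumours and at most 0.293 CPM in naive. Of 6 neutrophil genes tested 4 were higher, but the neutrophil gene S100a8 stayed at 1.20 CPM or lower in each of the 6 libraries.

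**Figure D3:**
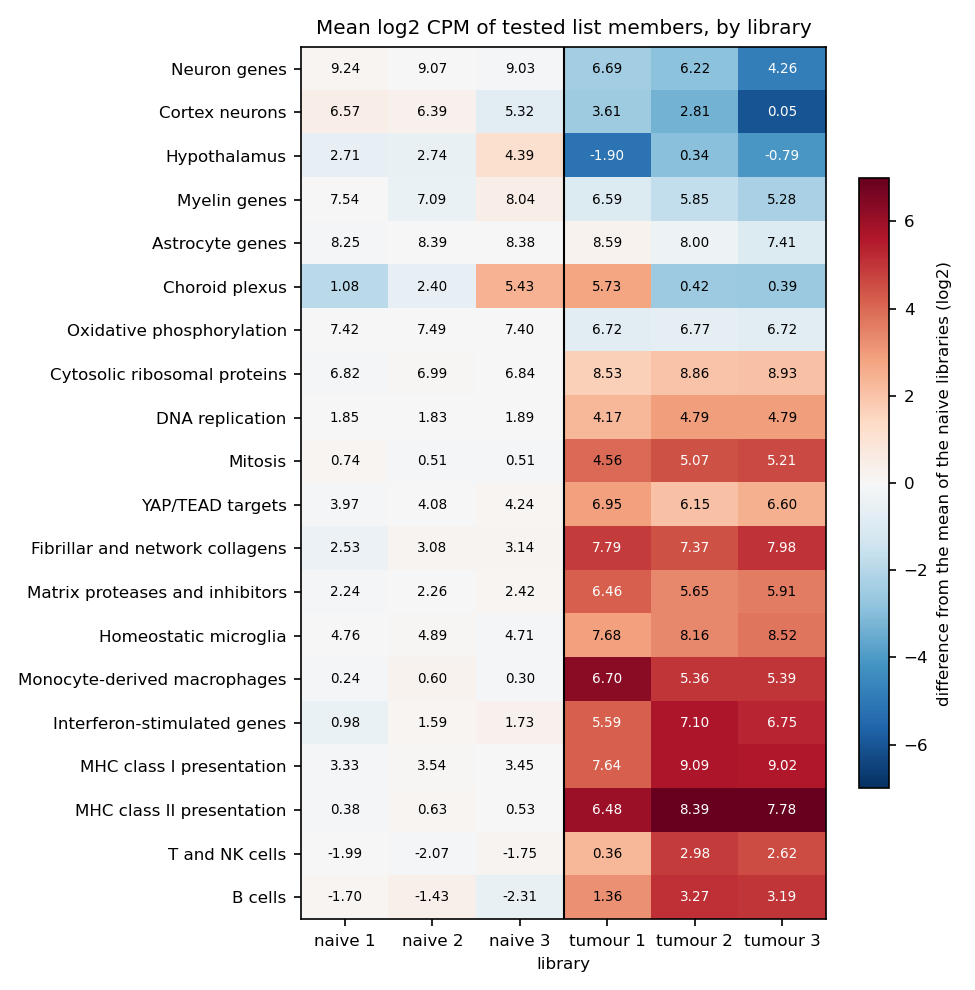
Each cell gives the mean log2 CPM of the tested members of a gene list (rows) in a library (columns), coloured by its difference from the mean of the naive libraries. Tumour 1 was lowest of the tumours for interferon, MHC and lymphocyte lists and highest for macrophage and choroid plexus genes, and tumour 3 was lowest for neuron genes.

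Most genes of energy metabolism fell. Of 21 glycolysis genes 13 were lower and 3 higher (median -0.79, or -0.52 without tumour 2), of 20 genes of the TCA cycle 15 were lower and 1 higher (-0.76), and of 24 oxidative phosphorylation subunits 23 were lower, 3 of them by at least 2-fold, and none higher (-0.70). The hexokinase isoforms moved apart, since Hk1, the isoform of brain, fell from 450, 416 and 360 CPM to 173, 140 and 129 CPM (-1.47 ± 0.16) and Hk2, the inducible isoform, rose from 4.39, 3.81 and 3.87 CPM to 88.0, 96.5 and 123 CPM (4.67 ± 0.17, edgeR adjusted p = 4.47e-07). The neuronal glucose transporter Slc2a3 fell by 2.12 ± 0.27 on the log2 scale and the lactate dehydrogenase chain Ldhb by 1.82 ± 0.31. The TCA cycle list also counts Mdh1, the malate dehydrogenase of the cytosol and not of the cycle itself. Mdh1 fell from 825, 775 and 756 CPM to 256, 228 and 189 CPM (-1.81 ± 0.17). In the cycle, Suclg2, the GTP-forming subunit of succinyl-CoA ligase, rose from 2.67, 2.85 and 3.56 CPM to 10.2, 14.4 and 13.2 CPM (2.06 ± 0.22). The respiratory chain subunit Ndufs1 fell from 192, 200 and 198 CPM to 101, 89.3 and 86.8 CPM (-1.09 ± 0.11). Over the oxidative phosphorylation genes, mean log2 CPM was 7.42, 7.49 and 7.4 in naive and 6.72, 6.77 and 6.72 in tumours 1 to 3, while neuron genes stood at 6.69, 6.22 and 4.26 in the same tumours. The part of lost neuronal RNA in these falls was not tested.

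All 29 cytosolic ribosomal protein genes tested were higher (median 1.84, range 1.26 to 3.11). Rps6 was at 58.8, 65.6 and 69.0 CPM in naive and 197, 269 and 268 CPM in tumours (1.93 ± 0.19), and Rplp0 at 148, 160 and 146 CPM and 1055, 1416 and 1455 CPM (3.11 ± 0.24). Many ribosomal protein genes have processed copies, so values of single members are uncertain. Of 25 proteasome genes 13 were higher, 2 were lower and 10 were not called, with a median of only 0.39, whereas the immunoproteasome subunit Psmb8, counted with MHC class I, rose by 7.27 ± 0.89. Lysosomal genes were higher in 20 of 24 cases and lower in 3 (median 2.66), and the progranulin gene Grn went from 46.9, 52.5 and 50.0 CPM to 854, 933 and 965 CPM (4.20 ± 0.16). Of 18 genes of serine and one-carbon metabolism 12 were higher and 1 lower (median 0.95); Shmt2, of mitochondrial folate metabolism, rose by 2.34 ± 0.17 and the cystine transporter Slc7a11 fell by 2.01 ± 0.49 on the log2 scale. Of 23 genes of cholesterol synthesis and export 15 were lower and 4 higher (median -0.71), with the exporter Abca1 up from 43.8, 44.5 and 54.1 CPM to 533, 263 and 314 CPM (2.96 ± 0.38). Of 17 hypoxia genes 9 were higher and 2 lower (median 0.67).

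**Figure D4:**
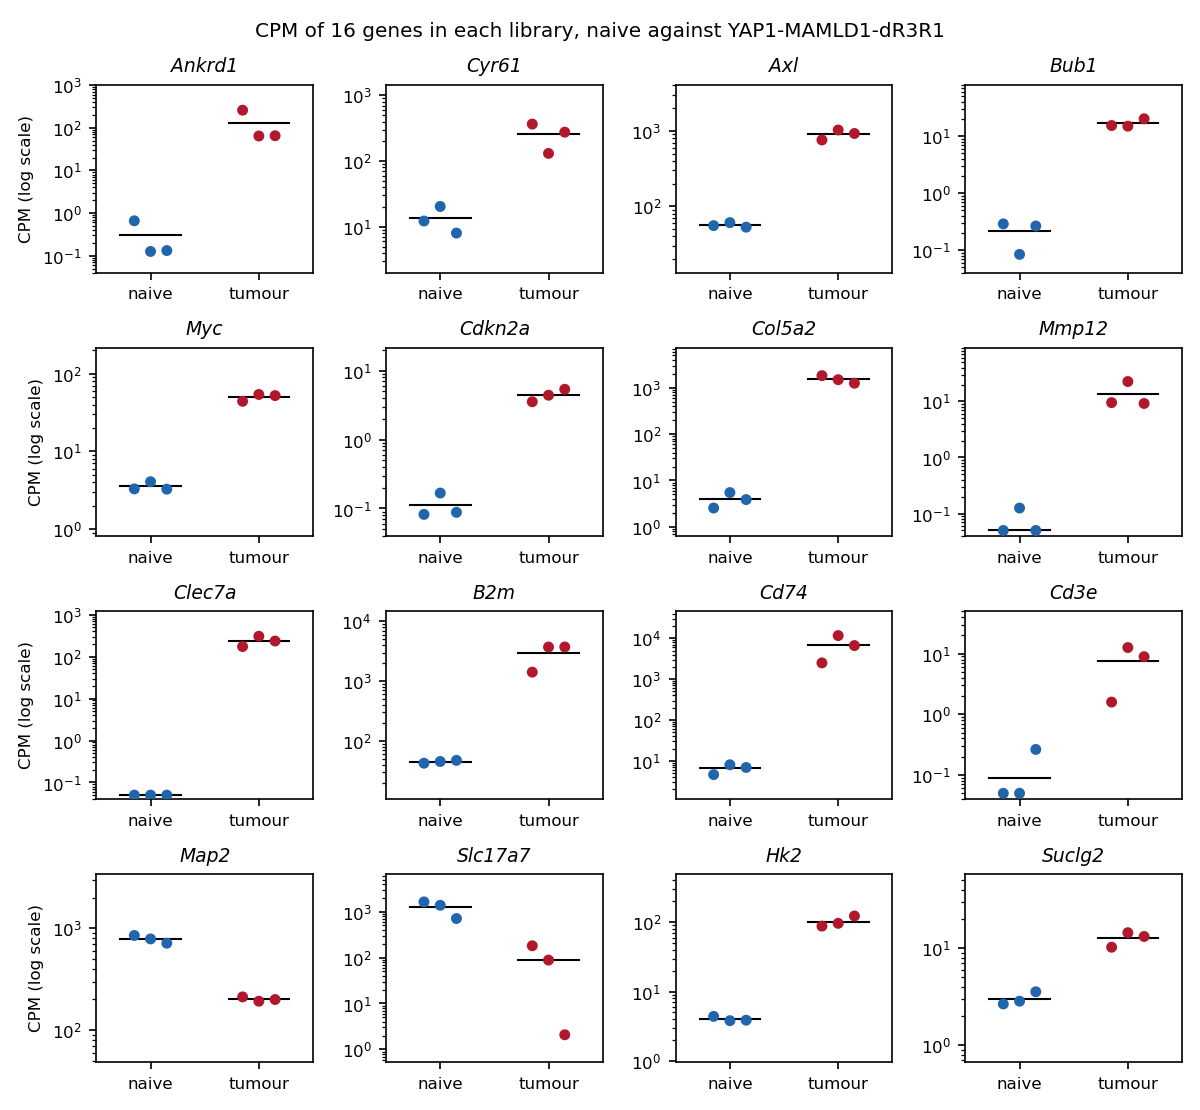
CPM of 16 genes on log scales, with 3 naive libraries in blue, 3 tumours in red and the group mean as a bar; values under 0.05 CPM are drawn at 0.05. Ankrd1, Bub1, Clec7a and Cd74 leave a wide gap between the groups, whereas Cd3e shows tumour 1, at 1.59 CPM, well under tumours 2 and 3.

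Genes with the largest variance among the 3 tumours were led by choroid plexus genes. Besides Ttr, the klotho gene Kl was at 38.7, 0.193 and 0.177 CPM in tumours 1 to 3 and at 3.32, 12.8 and 48.2 CPM in naive, high in the same libraries as Ttr in both groups, and was called lower without tumour 1 (-6.81, edgeR adjusted p = 0.0207). Msln, mesothelin, was at 44.8 CPM in tumour 1 and at most 0.0966 CPM in the others; its log2 fold change was 3.39 with all libraries (edgeR adjusted p = 0.127) and -4.24 without tumour 1 (edgeR adjusted p = 0.0127). Il31ra, a cytokine receptor, was at 55.2, 0.193 and 1.37 CPM, and its call ended without tumour 1 (1.19, edgeR adjusted p = 0.325) or any 1 of the naive libraries (0.0913, 0.0832 and 0.0688). Hapln1, a link protein of the matrix around neurons, was at 44.4, 3.0 and 0.0887 CPM in tumours and 18.7 to 29.9 CPM in naive, and was called lower only when tumour 1 was left out, with or without naive 3 (-4.0, edgeR adjusted p = 0.0208, without tumour 1 alone). Tspan8, a tetraspanin of epithelia, was highest in tumour 2, at 9.55, 31.7 and 0.0887 CPM, and its call ended without it (2.98, edgeR adjusted p = 0.0927), without naive 1 (0.0660) or without naive 3 (0.0598). Tumour 1 was therefore the highest library of its group at each of these genes except Tspan8.

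The same tumours were also set against the tumours of the other fusions in the same fit. They differed from YAP1-FAM118B tumours at 4293 genes (26.2%) and from YAP1-TFE3 tumours at 6456 (39.5%). The genes shown were chosen as apart from naive and both other fusions in the same direction with no overlap of libraries, so their separation is given as a description, and the 3 comparisons share the same tumour libraries. Dio3, which inactivates thyroid hormone, was at 196, 50.8 and 115 CPM in YAP1-MAMLD1-dR3R1 tumours and at most 3.87 CPM in any other library. The BMP family ligand Gdf6 was at 128, 42.9 and 64.2 CPM and at most 1.68 CPM elsewhere. Crabp1, a carrier of retinoic acid, was at 26.5, 13.2 and 133 CPM, and Sbspon, a matrix protein, at 12.9, 54.0 and 28.2 CPM. Trim54, Igfn1, Htr2a, Kcnj4 and Slc6a17 were the genes of the lower direction. Trim54 had no count in these tumours, at most 0.176 CPM in naive and 0.0461 to 0.504 CPM in YAP1-FAM118B tumours. Only in YAP1-TFE3 tumours was Trim54 high, at 5.20 to 21.7 CPM. Slc6a17, a vesicular amino acid transporter, was at 78.3, 50.0 and 5.81 CPM, against 609 to 769 CPM in naive, 289 to 457 CPM in YAP1-FAM118B and 300.3 to 551 CPM in YAP1-TFE3 tumours, and the serotonin receptor gene Htr2a at 3.96, 1.98 and 0.798 CPM, under all other libraries, which began at 10.7 CPM.

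**Figure D5:**
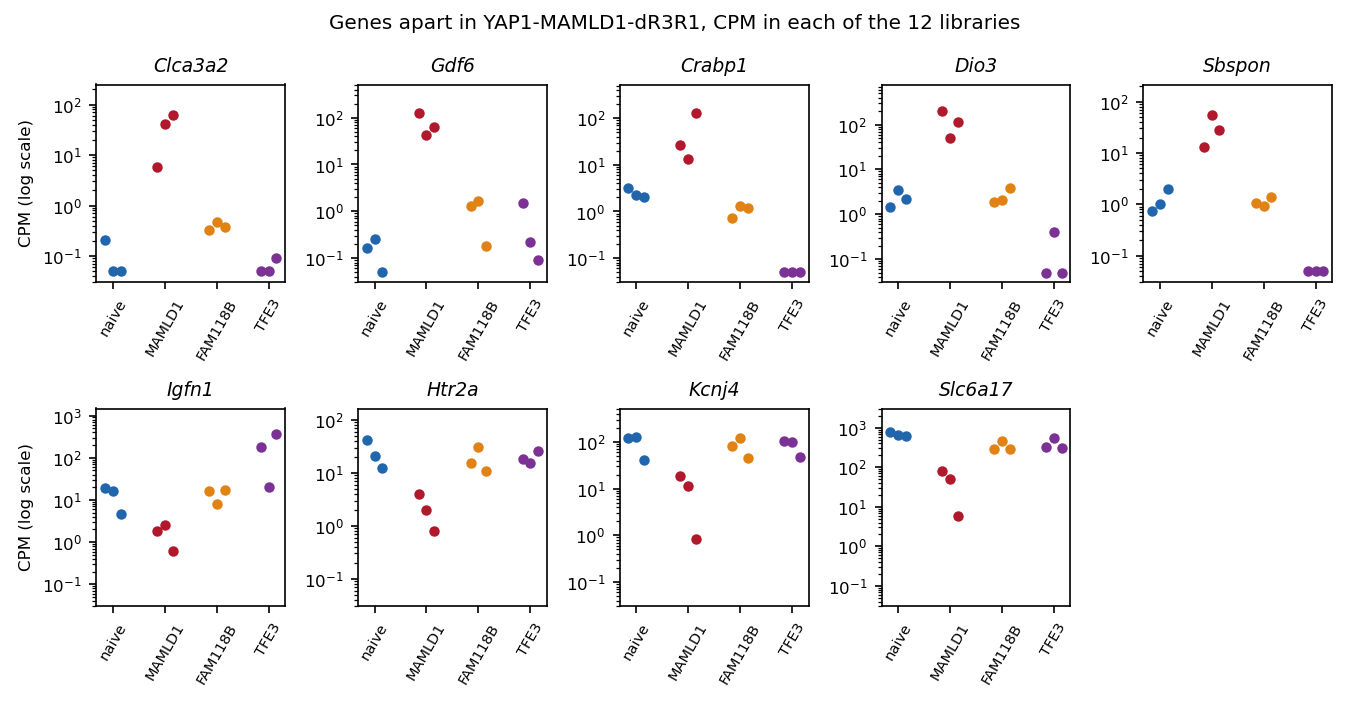
CPM of 9 genes in each of the 12 libraries, on log scales, by group, from naive on the left to YAP1-TFE3 tumours on the right, with values under 0.05 CPM drawn at 0.05. The first 5 genes are highest in the 3 YAP1-MAMLD1-dR3R1 tumours and the other 4 are lowest there; Dio3, for example, reaches at least 50.8 CPM in them and at most 3.87 CPM elsewhere.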

How the data were processed

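Bulk RNA-seq counts of 12 mouse libraries were used, 3 of YAP1-MAMLD1-dR3R1 tumours and 3 naive in the comparison. The authors deposited the raw read count of each gene symbol; per the submitters' processing notes the counting tool was HTSeq and the build mm10. No version, aligner, annotation or strand setting is given in the sources used here. Reads of overlapping, antisense or near-identical genes therefore cannot be told apart. The naive source field names normal cortex while its tissue field names a brain tumour, and the extraction protocol describes cell cultures while the design text describes frozen tumours.

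Counts were scaled with TMM factors and tested with the edgeR 4.0.16 quasi-likelihood F test (limma 3.58.1, R 4.3.3) fitted to all 12 libraries, with a dispersion common to the 4 groups. filterByExpr with a minimum count of 10 left 16364 of 24421 genes. Benjamini-Hochberg adjustment over all of them used 0.05. The SE is the size of the log2 fold change divided by the square root of F. Log2 CPM used a prior count of 2. Where naive had no count, folds were taken against 3 counts in the whole group, and counting intervals are exact at 95%. On simulated counts of 15373 genes, the test found 12 of 100 true 2-fold changes and 72 of 100 true 4-fold changes, with 2 false calls among 86. No other genes were changed there. The Benjamini-Hochberg cut-off was therefore stricter than with the 10339 calls of the real comparison, whose power these rates do not measure.

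The members and the 63 gene lists were chosen with earlier results of these data known. Genes were named as key members, the largest changes per direction with at least 10 CPM in the higher group and libraries that did not overlap, up to 4 called members per list by adjusted p and up to 2 the other way, up to 5 per direction apart from the other fusions, and up to 10 of largest variance among the tumours; not every gene so named is described. Cdk6, Cxcl10, Ifit1, Lox, Mfsd2a, Mycn, Myof, Nuak2, Pdgfb, Psmb8, Trp53 and Zbp1, all list members, and the sex-linked genes were chosen outside this rule, after their values were seen. Promoter sequences are from RefSeq, GRCm38.p6. Alternatives were RLE or upper-quartile factors, library size only, other filters, robust dispersion, only 6 libraries, a replicate block, a test against 2-fold (glmTreat), DESeq2 1.42.0 and each library left out.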

Additional observations from a re-analysis of the deposited data

How the results depend on the processing

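The number of genes called stayed within 1.5 times of 10339 under every alternative except the test against a 2-fold change (glmTreat), which called 5053. Leaving out each library in turn gave 8996 to 10129 genes called, 4864 to 5509 higher and 4042 to 4620 lower. The smallest total came without naive 1. With the replicate block 10186 genes were called, 5483 higher and 4703 lower. The labels state no pairing. Deviations of same-numbered libraries correlated at -0.0785, 0.0257 and 0.0192, inside the range of -0.131 to 0.131 of differently numbered ones. A pairing by number was therefore not shown, but 3 libraries a group cannot exclude it. Under the block Egfr, Il31ra, Mrc1, Shox2 and Tead4 lost their calls. DESeq2 called 11123 genes, 5615 higher and 5508 lower, with 121 adjusted p-values missing, and RLE factors moved the median of all genes by -0.08.

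The choroid plexus list depended on single libraries: its median of 0.17 became -1.44 with the replicate block, -0.34 without naive 1, -0.27 without naive 2, 2.34 without naive 3, -4.37 without tumour 1 and -2.32 without naive 3 and tumour 1. The blood-brain barrier list, at -0.06, became 0.0656 without tumour 3. The cause was not tested. Of 161 genes given with values 144 were called. Leaving aside the test against a 2-fold change, which asks for more, 15 of these lost the call in at least 1 alternative, 8 others were called only in an alternative, none that was called changed direction, and counts of calls moved by over 1.5 times in 10 of 63 lists. Under that test 14 of the 144 lost the call and counts moved by over 1.5 times in 20 lists, oxidative phosphorylation among them.

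With 3 libraries a group, few 2-fold changes were recovered in simulated data. Far fewer genes were changed there than were called here, so the power of the real comparison was not measured. Genes near 3 counts a library and uneven levels of regional genes among naive libraries limit the values of rare transcripts and of regional markers.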
